A study of Mus musculus with 6 samples.

Results

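RNA-seq read counts of 34 genes of the B cell lineage and of MHC class II antigen presentation were followed in CD4 T cells sorted from mouse spleen. The genes were taken by symbol from the 25239 genes listed for each library, and all 34 were among the 12117 genes that passed the filter on low counts. The cells were purified by flow cytometry as TCRb+CD4+CD44-CD127+ T cells of C57BL/6 mice that were Ikzf3 +/+, Ikzf3 +/N159S or Ikzf3 N159S/N159S, with 2 libraries for each genotype, hereafter +/+, +/N159S and N159S/N159S. Ikzf3 encodes Aiolos, a zinc finger transcription factor of the Ikaros family made in lymphocytes, and N159S is a knock-in substitution made by genome editing, which B cells and T cells of these mice carry alike. No treatment was given beyond the sort, and the sources used here give neither the age nor the sex of each animal. The methods of the study give its sample sizes as mice, while the labels tie no library to an animal and whether animals were pooled is not given in the sources used here, so p-values measure the spread between these libraries.

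B cells recognise antigen through a surface immunoglobulin coupled to the signalling chains CD79A and CD79B, and they present peptides to CD4 T cells on MHC class II molecules, which are loaded with the help of the invariant chain CD74. Mouse T cells are known to carry little or none of most of these transcripts, so the genes serve as a measure of B cell RNA in a T cell sort. Several of them are not limited to B cells: dendritic cells and macrophages also use the class II genes, Syk, Lyn, Btk, Fcgr2b, Ly86 and Cd180. In bulk RNA, fewer cells of a type and less RNA per cell cannot be told apart.

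The libraries held between 11696461 and 17317260 counted reads. The 34 genes together took between 0.0349% and 0.148% of them. Levels were also given as reads per kilobase of exon, scaled to counted reads (RPKM). Of the genes that the label requires, Cd4 was at 173 to 241 RPKM and Il7r (CD127) at 192 to 275 RPKM. In a list of 15 T cell genes that holds both, Tcf7 stood highest, at 616 to 691 RPKM. Cd3d, a chain of the T cell receptor complex, was at 188 to 229 RPKM. Cd28, a co-stimulatory receptor, was among the lowest at 33.0 to 46.2 RPKM. Cd79b stood at 5.97 to 24.1 RPKM and Ms4a1 at 0.424 to 4.23 RPKM, below every one of the 15. Cd74, at 33.3 to 199 RPKM, was above 7 and 12 of the 15 T cell genes in the +/N159S libraries and above 0 to 2 of them in the other 4. Ikzf3 itself was at 156 and 151 counts scaled to a library of 1000000 counted reads (CPM) in +/+, 169 and 156 in +/N159S and 196 and 201 in N159S/N159S, which checks expression but not the substitution. Xist, which the inactive X chromosome of females expresses, reached 737 and 846 CPM in the +/N159S libraries but only 0.769 to 1.96 CPM in the other 4, so sex and the +/N159S genotype cannot be told apart in any value below.

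A common B cell level was defined in each library as the geometric mean of the CPM of Cd74 and Cd79b. Cd74 was at 67.4 and 96.4 CPM in +/+, at 192 and 334 CPM in +/N159S and at 79.5 and 55.9 CPM in N159S/N159S. Cd79b was at 8.55 and 13.8, at 23.2 and 34.6, and at 14.5 and 9.98 CPM. Both +/N159S libraries lay above the other 4 for both genes, and the +/+ and N159S/N159S libraries overlapped. The common level was therefore 24.0 and 36.4 CPM, 66.7 and 107 CPM, and 33.9 and 23.6 CPM in the 3 genotypes, and it differed between the 2 libraries of each genotype as well. Cd74 was 281% and 265% of this level in +/+, 288% and 311% in +/N159S and 234% and 237% in N159S/N159S, so that the 2 genes that make up the level kept their proportion to each other only approximately.

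The gene that departed furthest from this level was Fcer2a, which encodes CD23, the low-affinity IgE receptor of mature follicular B cells. The bases upstream of its RefSeq transcription starts are shown because Ikaros family proteins are known to bind a GGGAA core. The capitals mark that core on either strand, and each sequence reads 5′ to 3′ on the strand of the gene. They lie at chr8:3694175-3694424 and chr8:3690862-3691111 on the minus strand of GRCm38.p6, directly before 2 of the 3 starts. The label downstream is relative to the other start shown. The window of the third start, chr8:3690391-3690640, lies further downstream, held 1 core and is not shown.
Fcer2a upstream start: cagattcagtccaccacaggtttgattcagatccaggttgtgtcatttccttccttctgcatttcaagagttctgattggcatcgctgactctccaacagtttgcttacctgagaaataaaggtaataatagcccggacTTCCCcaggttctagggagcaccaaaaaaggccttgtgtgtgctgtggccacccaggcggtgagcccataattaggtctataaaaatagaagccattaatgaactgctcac
Fcer2a downstream start: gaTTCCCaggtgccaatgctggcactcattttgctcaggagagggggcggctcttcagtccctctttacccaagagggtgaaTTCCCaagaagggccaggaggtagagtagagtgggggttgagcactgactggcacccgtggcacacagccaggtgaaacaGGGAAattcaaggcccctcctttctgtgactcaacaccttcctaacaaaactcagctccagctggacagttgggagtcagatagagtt
All 3 Fcer2a windows of 250 bases held the core, but so did any window of 18 of the 27 members with an entry in the promoter table. Counted by promoter rather than by gene, 56.24% of all 32851 promoters held it, so these shares are in unlike units. The match is a description and not a site.

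Class II genes share promoter elements, among them a Y box with the core CCAAT. The 120 bases before the start are shown for H2-Aa and H2-Eb1, whose transcripts moved with the B cell level. They are also shown for H2-Oa and H2-Ob, whose transcripts did so less over the 6 libraries as a whole. The capitals mark CCAAT on either strand. The windows are chr17:34287824-34287943 on the minus strand for H2-Aa, and chr17:34305747-34305866, chr17:34092259-34092378 and chr17:34238785-34238904 on the plus strand for H2-Eb1, H2-Oa and H2-Ob.
H2-Aa: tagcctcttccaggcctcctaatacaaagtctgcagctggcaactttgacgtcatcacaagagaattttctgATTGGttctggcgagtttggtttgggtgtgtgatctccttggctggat
H2-Eb1: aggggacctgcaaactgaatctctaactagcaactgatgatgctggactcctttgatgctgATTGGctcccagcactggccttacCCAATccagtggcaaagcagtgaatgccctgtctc
H2-Oa: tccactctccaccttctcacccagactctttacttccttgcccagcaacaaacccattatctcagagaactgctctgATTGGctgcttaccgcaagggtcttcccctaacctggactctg
H2-Ob: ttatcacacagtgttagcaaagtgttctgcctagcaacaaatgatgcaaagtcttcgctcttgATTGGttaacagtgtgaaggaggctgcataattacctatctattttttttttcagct
The core stood within 250 bases of the start in 6 of the 6 class II genes compared (H2-Aa, H2-Eb1, H2-Oa, H2-Ob, H2-DMb1 and H2-DMb2) and in any window of 14 of the 27 members with an entry. Counted by promoter rather than by gene, it stood in 33.85% of all promoters. H2-DMa had entries but was not among the genes compared, and 1 of its windows held the core while the other did not. The presence of the core therefore did not separate H2-Aa and H2-Eb1 from H2-Oa and H2-Ob.

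**Figure D1:**
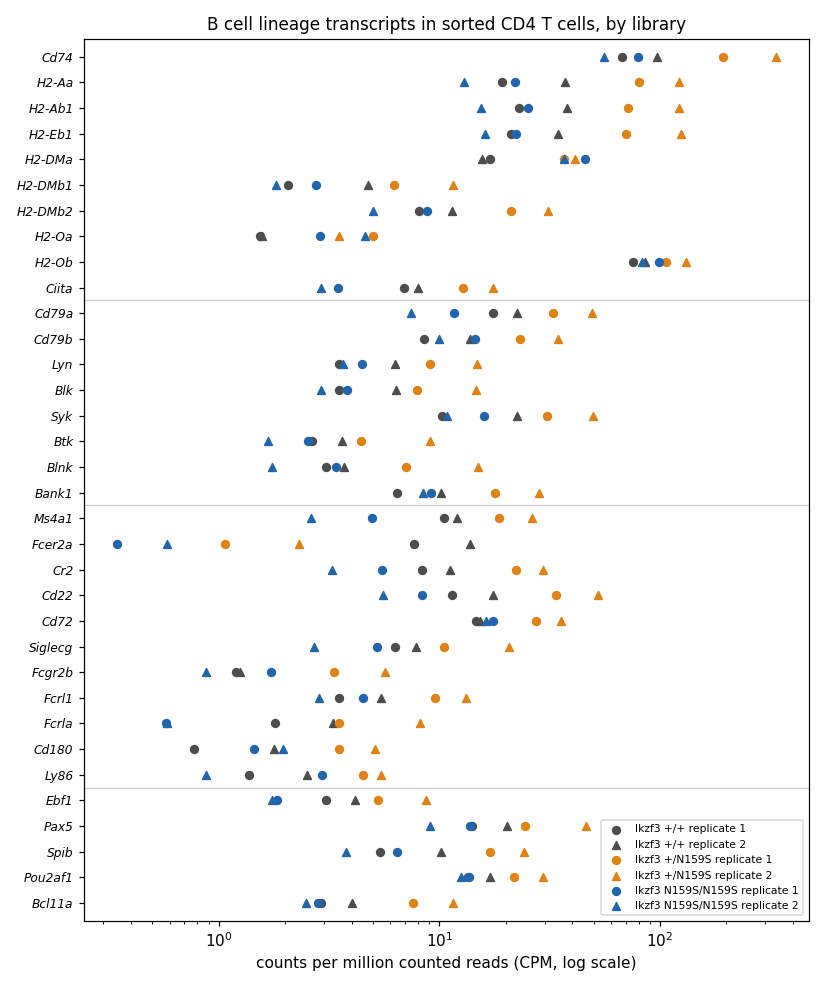
CPM (log axis) of the 34 genes in each of the 6 libraries, with colour for genotype, symbol shape for replicate number and grey lines between roles (antigen presentation, B cell receptor and its signalling, surface and Fc receptor-like proteins, transcription factors). The +/N159S libraries are the highest for most genes, whereas Fcer2a is highest in +/+ at 7.69 and 13.8 CPM.

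Comparison of +/N159S with +/+ asked how these transcripts differed between the libraries of these genotypes. With libraries scaled by TMM, which equalises the bulk of genes between libraries, and edgeR's quasi-likelihood test, 14 of the 34 genes were differentially expressed genes (DEGs) with higher counts and 1 with lower counts at a Benjamini-Hochberg FDR under 0.05, and 33 of 34 had a positive log2 fold change. Among all genes tested, 1.16% were higher and 0.586% lower DEGs. The median log2 fold change of the 34 genes was 1.28, beside 0.011 over all genes tested. By role, 7 of 10 antigen presentation genes, 2 of 8 genes of the B cell receptor and its signalling, 3 of 11 genes of surface and Fc receptor-like proteins and 2 of 5 transcription factor genes rose.

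The classical class II chains were among the genes that rose. H2-Aa, the alpha chain of I-A, was at 19.2 and 37.1 CPM in +/+ and at 80.1 and 122 CPM in +/N159S, a log2 fold change of 1.78 ± 0.30 (SE, n = 2 a group; edgeR FDR 0.015). H2-Eb1, the beta chain of I-E, was at 21.2 and 34.6 CPM against 70.3 and 125 CPM, a log2 fold change of 1.74 ± 0.27 (edgeR FDR 0.011). For both genes the 2 genotypes did not overlap. Cd74 rose by a log2 fold change of 1.63 ± 0.25 (edgeR FDR 0.0097), and Cd79b rose by 1.3 ± 0.26 (edgeR FDR 0.029). The further genes that rose were H2-Ab1, H2-DMa, H2-DMb2, Ciita, Bank1, Cd22, Cd72, Cr2, Spib and Bcl11a. Of the 14, H2-Eb1, H2-DMa and Cd72 passed the threshold whichever library was left out. H2-Eb1, however, stood at the threshold itself under 1 alternative. Without +/+ replicate 1 they were the 3 that passed, and the FDR of Cd74 was 0.0523, that of H2-Aa 0.0511 and that of Cd79b 0.144; without +/N159S replicate 2, 6 passed and Cd79b had an FDR of 0.104; without +/N159S replicate 1, 22 passed.

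Fcer2a was the exception. It was counted 90 and 210 times in +/+ and 18 and 35 times in +/N159S, or 7.69 and 13.8 CPM against 1.07 and 2.31 CPM. Both +/N159S libraries lay below both +/+ libraries, although their B cell level was the higher. The log2 fold change was -2.74 ± 0.40 (edgeR FDR 0.0082), or 6.66-fold lower. Without +/+ replicate 2 it was -2.22, with an FDR of 0.0948.

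Homozygous N159S/N159S libraries were set against +/+ libraries to see how these transcripts differed between libraries whose B cell level overlapped. Here 1 gene rose and 6 fell, and 26 of 34 had a negative log2 fold change. Among all genes tested, 3.1% were higher and 2.1% lower DEGs. The median log2 fold change was -0.53, beside 0.00018 over all genes. The genes that fell were Fcer2a, Ms4a1, Cr2, Fcrla, Cd79a and Ciita, of which the first 4 belong to the 11 genes of surface and Fc receptor-like proteins, and none of the 5 transcription factor genes passed edgeR's test or DESeq2's (1, Ebf1, had an unadjusted p under 0.05).

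Fcer2a was counted 6 and 8 times in N159S/N159S, with exact 95% Poisson intervals of 2.2 to 13.1 and 3.45 to 15.8 reads that cover counting error only. Its mean was 10.8 ± 4.33 CPM (SD, n = 2) in +/+, 1.69 ± 0.877 CPM in +/N159S and 0.465 ± 0.167 CPM in N159S/N159S. The log2 fold change between the homozygous and +/+ libraries was -4.57 ± 0.49 (edgeR FDR 0.00032), or 23.7-fold lower, and it passed the threshold whichever library was left out. The 3 genotypes did not overlap, and +/N159S lay in between.

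Ms4a1, which encodes CD20, was at 10.5 and 12.0 CPM in +/+, at 18.6 and 26.2 CPM in +/N159S and at 4.97 and 2.62 CPM in N159S/N159S. The homozygous libraries lay below the +/+ libraries by a log2 fold change of -1.56 ± 0.27 (edgeR FDR 0.0071). Cr2, the complement receptor CD21, changed by -1.16 ± 0.26 (edgeR FDR 0.026), and Fcrla, an intracellular Fc receptor-like protein, by -2.15 ± 0.56 (edgeR FDR 0.049), from 21 and 50 reads to 10 and 8. The groups of none of these 3 genes overlapped. Cd22, an inhibitory receptor that binds sialic acid, had a log2 fold change of -1.06 ± 0.28 with an edgeR FDR of 0.052, just outside the threshold, and an FDR of 0.00911 in DESeq2.

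Cd79a was at 17.5 and 22.4 CPM in +/+ and at 11.7 and 7.43 CPM in N159S/N159S, a log2 fold change of -1.07 ± 0.24 (edgeR FDR 0.027), while its partner Cd79b had one of 0.12 ± 0.27 (edgeR FDR 0.88). Ciita, the co-activator that switches on class II genes, was at 6.93 and 7.97 CPM against 3.46 and 2.91 CPM, a log2 fold change of -1.23 ± 0.23 (edgeR FDR 0.011). Its classical targets had smaller values: H2-Aa -0.70 ± 0.31, H2-Ab1 -0.59 ± 0.30, H2-Eb1 -0.55 ± 0.28 and Cd74 -0.29 ± 0.25 on the log2 scale, none of which passed the test (edgeR FDR 0.26 to 0.61). Without +/+ replicate 2, the fold changes of Cd79a (-0.86), Ms4a1 (-1.43), Cr2 (-0.91), Fcrla (-1.61) and Ciita (-1.10) no longer passed, which left 1 fallen gene, Fcer2a. Without N159S/N159S replicate 2, 2 fallen genes were left, Fcer2a and Ms4a1, and without N159S/N159S replicate 1 Fcrla had an FDR of 0.182.

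H2-DMa, a chain of the H2-DM molecule that exchanges peptides on class II, was the gene that rose. It was at 16.9 and 15.7 CPM in +/+, at 36.7 and 41.2 CPM in +/N159S and at 45.6 and 36.8 CPM in N159S/N159S. Both mutant genotypes lay above +/+ and overlapped each other. The log2 fold change was 1.33 ± 0.14 (edgeR FDR 0.00031) in N159S/N159S and 1.22 ± 0.14 (edgeR FDR 0.0025) in +/N159S, and both passed whichever library was left out. The partner chains H2-DMb1 and H2-DMb2, which are near-identical copies whose reads the counting may have split, had log2 fold changes of -0.59 ± 0.44 and -0.51 ± 0.28 in N159S/N159S. The mm10 gene model of H2-DMa shares 360 exon bases with Brd2, which was counted 7315 to 10966 times; Brd2 had a log2 fold change of -0.27 ± 0.12 in N159S/N159S and -0.21 ± 0.12 in +/N159S. H2-Oa, a chain of the H2-O molecule that restrains H2-DM, was counted 18 and 24 times in +/+, 84 and 53 times in +/N159S and 50 and 63 times in N159S/N159S. Its log2 fold change in N159S/N159S was 1.23 ± 0.37 (edgeR FDR 0.092).

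**Figure D2:**
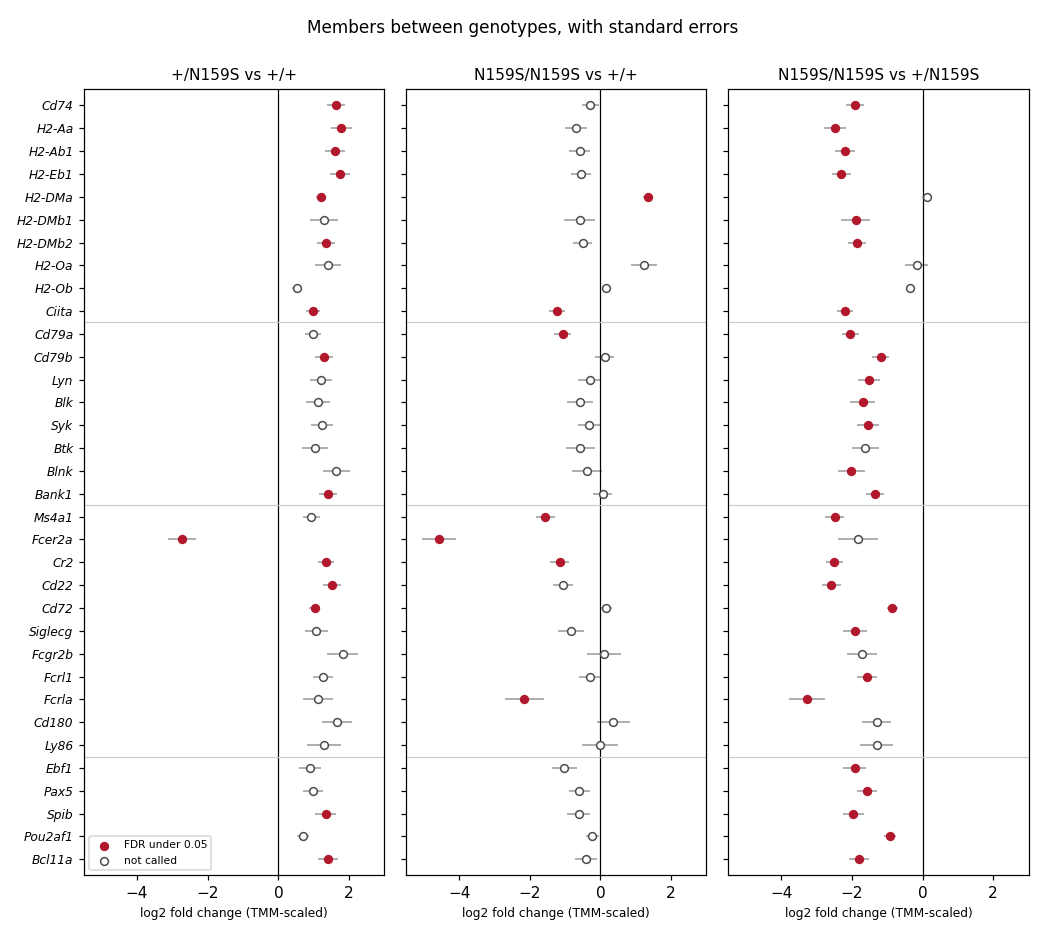
Log2 fold changes of the 34 genes after TMM scaling, with bars of 1 standard error, in the 3 comparisons of genotypes; filled red points passed an FDR under 0.05 and open points did not. Fcer2a stands apart at -2.74 and -4.57 in the comparisons with +/+, and H2-DMa is at 1.22 and 1.33.

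Between the mutant genotypes, 26 of the 34 genes were lower in N159S/N159S than in +/N159S and none was higher in edgeR or DESeq2 (0 at an unadjusted p under 0.05), where 0.933% of all genes tested were lower and 0.553% higher DEGs. The median log2 fold change was -1.82, beside -0.0077 over all genes. This comparison uses the same libraries as those above, so it adds no separate evidence. The log2 fold changes were -1.92 ± 0.25 for Cd74 (edgeR FDR 0.004), -2.48 ± 0.31 for H2-Aa, -2.58 ± 0.27 for Cd22, -2.5 ± 0.24 for Cr2 and -2.49 ± 0.26 for Ms4a1, which all passed whichever library was left out. Cd79b changed by -1.19 ± 0.25 (edgeR FDR 0.042). All 5 transcription factor genes fell, from Spib (-1.95 ± 0.31) and Ebf1 (-1.91 ± 0.33) to Pou2af1 (-0.93 ± 0.18). The 8 genes that did not pass were Btk, Cd180, Fcer2a, Fcgr2b, H2-DMa, H2-Oa, H2-Ob and Ly86. Of these, Fcer2a had a log2 fold change of -1.83 ± 0.57 (edgeR FDR 0.18), and with no filter on low counts one of -1.82 ± 0.42 that passed (edgeR FDR 0.0012), while the FDR lay between 0.0795 and 0.623 under the other alternatives. The number of fallen genes was 12 without +/N159S replicate 2 and 10 without N159S/N159S replicate 2, and Cd79b did not pass in either case (FDR 0.169 and 0.244). Without N159S/N159S replicate 2 the 5 transcription factor genes did not pass either (FDR 0.0719 to 0.16).

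Because the common B cell level differed between libraries, each gene was also expressed as a percentage of it, library by library. A gene that follows Cd74 and Cd79b keeps the same percentage in all 6 libraries. Across the 32 other genes the highest percentage was a median of 2.06 times the lowest. It was within 1.5 times for 5 genes (Fcrl1, Lyn, Bank1, Syk and Bcl11a) and within 2 times for 15, and it exceeded 3 times for 5 genes, which were Ms4a1, H2-DMa, Fcrla, H2-Oa and Fcer2a. The next values are a description over 6 libraries that share Cd74 and Cd79b as the yardstick. Of these 32 genes, 22 had a Pearson correlation of at least 0.9 between their log2 CPM and the log2 B cell level. A slope of 0.7 to 1.3 was found for 25. The shares over all genes tested were not counted, so these counts have no background to be set against.

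Fcrl1, an Fc receptor-like surface protein of B cells, kept the most constant proportion, at 14.6% and 15% of the B cell level in +/+, 14.3% and 12.2% in +/N159S and 13.3% and 12.0% in N159S/N159S. Bank1, a scaffold of B cell receptor signalling, was at 26.7% and 28.0%, 26.7% and 26.4%, and 27.0% and 35.8%. Lyn, a kinase that starts B cell receptor signalling, was at 14.6% and 17.3%, 13.7% and 13.8%, and 13.1% and 15.4%. These genes rose and fell with Cd74 and Cd79b, and their genotypes overlapped or differed by little. Syk, a kinase recruited to CD79A and CD79B, lay at 42.7% to 61.6% in all 6 libraries, and both of its extremes were +/+ libraries.

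Fcer2a was at 32.1% and 38.0% of the B cell level in +/+, at 1.61% and 2.15% in +/N159S and at 1.02% and 2.47% in N159S/N159S. The mutant genotypes overlapped each other and lay far below +/+. Counted directly against Cd79b, there were 90.0 and 100.5 Fcer2a reads per 100 Cd79b reads in +/+, 4.63 and 6.69 in +/N159S and 2.39 and 5.84 in N159S/N159S. Its log2 CPM had a Pearson correlation of -0.05 with the B cell level over the 6 libraries, but in a model with a term for the B cell level beside genotype the slope of Fcer2a was 1.21 ± 0.48 (SE), where a proportional gene has a slope of 1. Within +/+ and within +/N159S the library with the higher B cell level had the more Fcer2a, and within N159S/N159S, with 6 and 8 reads, it did not.

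**Figure D3:**
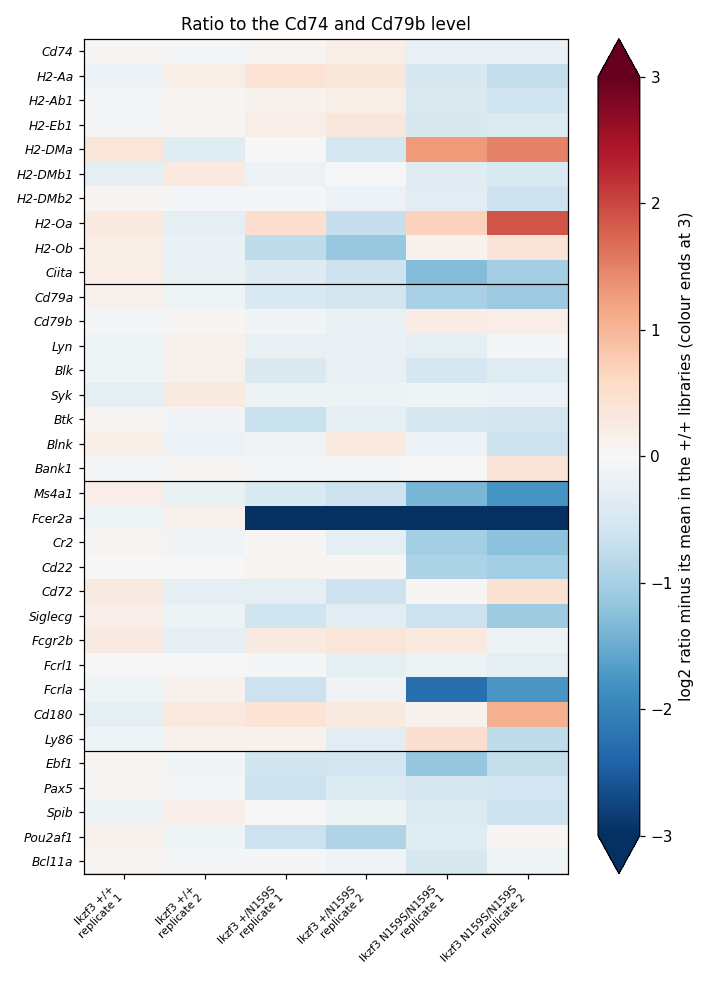
Log2 ratio of each gene to the Cd74 and Cd79b level in each library, less its mean in the 2 +/+ libraries; red is a higher and blue a lower ratio, the colours end at 3, and black lines separate the roles. Fcer2a is dark blue in all 4 mutant libraries, H2-DMa is red in the N159S/N159S libraries, and Fcrl1, Lyn and Bank1 stay pale.

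The proportion was lower in both N159S/N159S libraries than in the other 4 for 16 of the 32 genes. The share of all genes tested was 0.413%, but most of those genes did not follow the B cell level, so the shares are not alike. The 16 were Cd79a, Ms4a1, H2-Aa, H2-Ab1, H2-Eb1, H2-DMb1, H2-DMb2, Ebf1, Cd22, Cr2, Blnk, Fcrla, Ciita, Bcl11a, Spib and Siglecg. Some of them separated narrowly. H2-DMb1 reached 8.16% in N159S/N159S against 8.55% (24 reads) in +/+ replicate 1. Bcl11a reached 10.5% (34 reads) against 10.8% in +/N159S replicate 2, and Blnk lay closer still. Cd79b itself was at 42.7% and 42.3% of the level in N159S/N159S and at 32.2% to 37.8% in the other 4. The count was not repeated against Cd74 alone. Cd22 was at 47.4% and 48.1% of the B cell level in +/+, 50.7% and 49.0% in +/N159S and 24.7% and 23.4% in N159S/N159S. Cr2 was at 34.9% and 30.7%, 33.4% and 27.4%, and 16.2% and 13.9%. Fcrla was at 7.48% and 9.04%, 5.27% and 7.63%, and 1.70% and 2.47%. For these 3 genes the +/N159S and +/+ libraries overlapped or lay close together. In the test of proportions given further on, none of the 3 passed between N159S/N159S and +/+ (edgeR FDR 1 for Cd22 and Cr2 and 0.306 for Fcrla). Between N159S/N159S and +/N159S, Fcrla passed (edgeR FDR 0.0177), and Cd22 and Cr2 had FDRs of 0.0525 and 0.0607. The log2 fold changes against +/+ and against +/N159S were alike for Cd22 (-0.99 ± 0.53 and -1.05 ± 0.53) and Cr2 (-1.12 ± 0.53 and -1.01 ± 0.52). That of Fcrla was the larger against +/+ (-2.02 ± 0.69, beside -1.66 ± 0.67). The FDRs are not comparable between these comparisons: the adjustment runs over all genes, of which 87% were higher DEGs between the mutant genotypes. H2-Eb1 was at 88.3% and 95.1%, 105% and 116%, and 65.7% and 68.5%, and H2-DMb2 and Spib, an ETS factor, showed smaller steps, at 33.8% and 31.4%, 31.8% and 28.8%, and 25.9% and 21.3% for H2-DMb2 and at 22.4% and 27.8%, 25.3% and 22.6%, and 18.9% and 16.0% for Spib.

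Within these 16, the proportions of 5 genes (Cd79a, Ms4a1, Ebf1, Ciita and Siglecg) lay in the order +/+, +/N159S, N159S/N159S from high to low with no overlap between genotypes. The share of all genes tested was 0.239%, but here too most of those genes did not follow the B cell level, so the shares are not alike. Ms4a1 was at 43.8% and 33.1% of the B cell level in +/+, 27.9% and 24.4% in +/N159S and 14.6% and 11.1% in N159S/N159S. Cd79a was at 73.0% and 61.6%, 49.3% and 45.6%, and 34.4% and 31.5%. Ciita was at 28.9% and 21.9%, 19.3% and 16.4%, and 10.2% and 12.3%. Ebf1, a factor that establishes B cell identity, was at 12.8% and 11.4%, 7.94% and 8.12%, and 5.44% and 7.40%, and Siglecg, an inhibitory receptor that binds sialic acid, at 26.4% and 21.5%, 15.7% and 19.3%, and 15.3% and 11.4%. No step of this order passed the test of proportions for any of the 5 genes: Ms4a1 came nearest, with an edgeR FDR of 0.0613 between N159S/N159S and +/N159S. The standard errors of that test were wider than those of the TMM-scaled fit, at 0.53 against 0.26 for Ms4a1 between N159S/N159S and +/N159S. Its FDRs are not comparable between comparisons, because the adjustment runs over all genes. Of all genes, 87% were higher DEGs between the mutant genotypes, while 0.19% were lower DEGs between N159S/N159S and +/+.

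H2-DMa, H2-Oa, H2-Ob, Cd72 and Pou2af1 varied less than the B cell level. Their slopes of log2 CPM on the log2 B cell level were 0.31, 0.30, 0.30, 0.55 and 0.52. H2-Ob, the partner of H2-Oa, stood at 75.2 and 85.3 CPM in +/+, 106 and 131 CPM in +/N159S and 98.6 and 83.0 CPM in N159S/N159S, and it overlapped between +/+ and N159S/N159S. Per kilobase of exon it was at 14.0 to 24.4 RPKM, below Cd74 at 33.3 to 199 RPKM in every library. Relative to the B cell level it was at 313% and 234% in +/+ and 291% and 352% in N159S/N159S, and it was lowest, at 122%, in +/N159S replicate 2, where that level was highest. Cd72, an inhibitory receptor, was at 60.9% and 41.7%, 41.0% and 33.0%, and 51.7% and 68.8%; 1423 of its 3422 exon bases overlap Tesk1, which was at 45.1 to 58.8 CPM with log2 fold changes of 0.21 ± 0.13 in N159S/N159S and 0.14 ± 0.13 in +/N159S. Pou2af1, a co-activator of octamer-binding factors, was at 56.3% and 46.6%, 32.6% and 27.5%, and 40.1% and 53.4%. H2-DMa was at 70.5% and 43.0%, 55.1% and 38.4%, and 134% and 156%, so that it alone of these 5 separated the N159S/N159S libraries from all others by more than the spread within genotypes.

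The remaining genes are given by their range over the 6 libraries. Among the class II genes, H2-Aa was at 54.9% to 120% of the B cell level, H2-Ab1, the beta chain of I-A, at 65.7% to 113% and H2-DMb1 at 7.71% to 13%. Blk, a kinase of the same family as Lyn, was at 11.2% to 17.5%, the kinase Btk at 6.60% to 11% and the adaptor Blnk at 7.40% to 14.0%. Pax5, the transcription factor that keeps B cell identity, was at 36.8% to 58.8% and was highest in the +/+ libraries, and Bcl11a was at 8.33% to 12.1%. Fcgr2b, the inhibitory receptor for IgG, was at 3.43% to 5.29%. Cd180 and Ly86, which form a receptor complex related to the Toll-like receptors, were at 3.21% to 8.33% and 3.70% to 8.67%, from 9 to 82 reads a library, and these 2 were among the least precise.

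**Figure D4:**
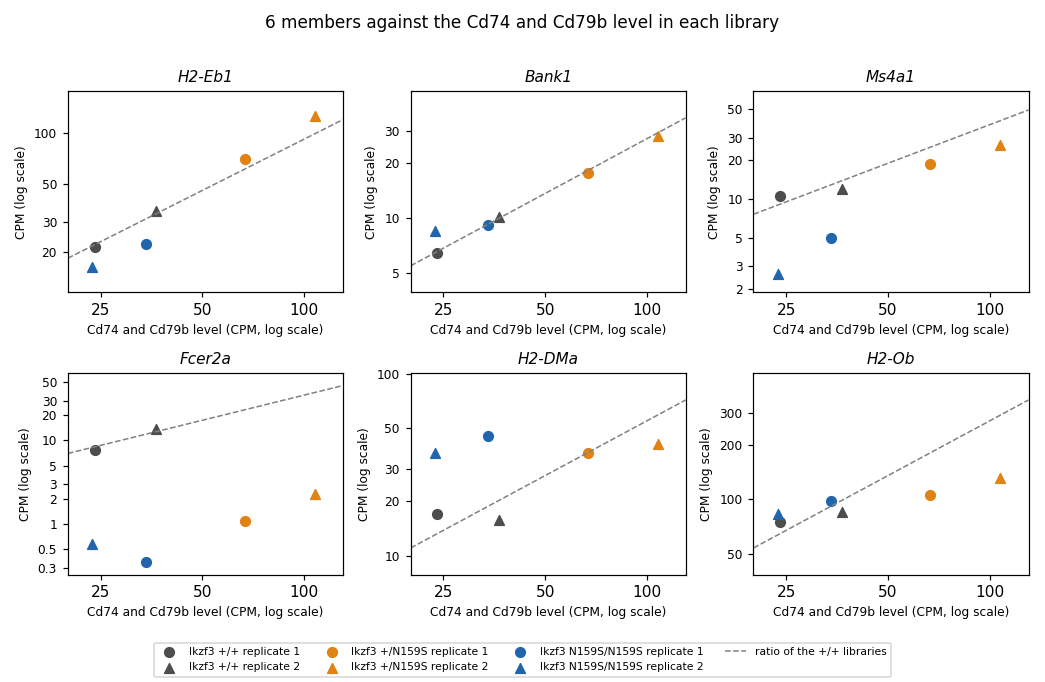
CPM of 6 genes against the Cd74 and Cd79b level (CPM) in each library, both on log axes; the dashed line continues the mean ratio of the 2 +/+ libraries. Bank1 lies along the line with a slope of 0.87 over the 6 libraries, Fcer2a falls far below it in all 4 mutant libraries, and H2-Ob runs flatter than the line with a slope of 0.30.

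The proportions were tested by fitting the same edgeR model with the B cell level in place of the library size, which left 32 genes to test. Between N159S/N159S and +/+, Fcer2a alone of the 32 passed the threshold, with a log2 fold change relative to the B cell level of -4.42 ± 0.69 (edgeR FDR 2.2e-07), or 21.4-fold lower, where 0.19% of all genes tested were lower DEGs. The values of Fcrla (-2.02 ± 0.69), Ms4a1 (-1.56 ± 0.54), Ciita (-1.17 ± 0.54), Cr2 (-1.12 ± 0.53), Cd79a (-1.03 ± 0.53) and Cd22 (-0.99 ± 0.53) did not pass. The standard errors were wider than those of the TMM-scaled fit, at 0.53 against 0.28 for Cd22. All genes were fitted, also those that did not follow the B cell level, and whether these widened the standard errors was not tested. With standard errors this wide, a gene that did not pass is not shown to keep its proportion. With TMM scaling and the B cell level as a covariate instead, 7 of the 32 genes were lower DEGs, beside 1.44% of all genes in that fit, among them Ms4a1 (-1.53, FDR 0.00542), Cd79a (-1.02, FDR 0.00756), Ciita (-1.19, FDR 0.0132) and Cr2 (-1.11, FDR 0.0133), and H2-DMa was higher (1.34, FDR 0.00123), beside 2.21% of all genes.

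Between +/N159S and +/+, 82.1% of all genes tested were lower DEGs relative to the B cell level, since most genes did not rise with it. Of the 32 genes, Fcer2a was the one that passed, at -4.20 ± 0.63 (edgeR FDR 3.4e-08) or 18.4-fold lower, and 31 lay within 1 log2 unit of no change. Their median was -0.17, beside -1.46 over all genes. The call of Fcer2a was lost with the B cell level as a covariate (-4.52, FDR 0.205).

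Between N159S/N159S and +/N159S, 87% of all genes tested were higher and 0.107% lower DEGs relative to the B cell level. Among the 32 genes, 3 were higher, namely H2-DMa (1.63 ± 0.53, edgeR FDR 0.0099), H2-Oa (1.36 ± 0.59, edgeR FDR 0.025) and H2-Ob (1.19 ± 0.54, edgeR FDR 0.033), and these thus moved as most other genes did. Fcrla was lower, at -1.66 ± 0.67 (edgeR FDR 0.018). Fcer2a had a log2 fold change of -0.22 ± 0.70 (edgeR FDR 0.76). None of the 4 calls was kept when +/N159S replicate 2 or N159S/N159S replicate 2 was left out (FDR 0.151 and 0.185 for H2-DMa, 0.26 and 0.411 for H2-Oa, 0.186 and 0.21 for H2-Ob, 0.154 and 0.185 for Fcrla). Without N159S/N159S replicate 1 Fcrla had an FDR of 0.145. H2-Ob had an FDR of 0.0594 to 0.21 with any 1 library left out.

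A further list of 30 B cell genes was read in the same libraries. Of these, 7 were higher DEGs in +/N159S than in +/+ (Icosl, Pik3ap1, Pou2f2, Rasgrp3, Scd1, Swap70 and Tnfrsf13c), beside 1.16% of all genes. None was lower in edgeR or DESeq2 (2 at an unadjusted p under 0.05, Bach2 and Cd200). The log2 fold change was positive for 25 and negative for 5. In N159S/N159S, 2 were higher (Icosl and Pou2f2) and 3 lower (Cd24a, Cd55 and Ly6d) than in +/+, beside 3.1% and 2.1% of all genes. Between N159S/N159S and +/N159S, 11 were lower DEGs, beside 0.933% of all genes. They were Cd24a, Cxcr5, Fcmr, Ly6d, Napsa, Pik3ap1, Plcg2, Rasgrp3, Scd1, Swap70 and Tnfrsf13c. In that comparison none was higher in edgeR or DESeq2 (2 at an unadjusted p under 0.05, Gpr183 and Zfp318). The most abundant genes of the list varied far less than the B cell level. Cd37 was at 211 to 275 CPM, Bach2 at 140 to 185 CPM and Gpr183 at 89.6 to 121 CPM over the 6 libraries. Tnfrsf13c, the receptor for the B cell survival factor BAFF, was at 4.02 and 4.87 CPM in +/+, 10.8 and 15.7 CPM in +/N159S and 5.14 and 2.91 CPM in N159S/N159S. Icosl, a co-stimulatory ligand, was at 8.98 and 10.7, 25.4 and 30.9, and 36.3 and 27.5 CPM, with the mutant genotypes overlapping above +/+ as for H2-DMa.

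Outside the 34 genes, those whose log2 CPM was most like the B cell level over the 6 libraries were Plek, Napsa, Pik3ap1, Rasgrp3, Ctsh, Fancl, Fnip2, Fam43a, Pkib and Tnfrsf13c, with Pearson correlations of 0.985 to 0.998. Plek, an adaptor of haematopoietic cells, was at 2.31 and 3.56 CPM in +/+, 5.95 and 10.3 CPM in +/N159S and 3.29 and 2.40 CPM in N159S/N159S, with a slope of 0.91. Fancl reached a correlation of 0.989 with a slope of 0.23, so a high correlation did not mean a constant proportion.

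The general machinery of class II presentation was read beside its B cell genes. Of 10 such genes, which encode the RFX and NF-Y factors of class II promoters, a protease and a reductase of antigen processing and the ligases that remove class II from the surface, none was a DEG between either mutant genotype and +/+ in edgeR or DESeq2, and Marchf1 was lower in N159S/N159S than in +/N159S. Marchf1 was at 3.25 and 4.08 CPM in +/+, 5.36 and 9.84 CPM in +/N159S and 1.67 and 2.33 CPM in N159S/N159S. At an unadjusted p under 0.05, 1 gene was higher and 2 were lower in N159S/N159S, and 3 were higher and 0 lower in +/N159S.

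Markers of myeloid and dendritic cells, which also carry class II, were read in the same libraries. Of 19 genes, 13 passed the filter, none was a DEG between either mutant genotype and +/+ in edgeR or DESeq2, and S100a9 was higher in N159S/N159S than in +/N159S. Their summed level was 78.3 to 80.6 CPM in +/+, 67.2 to 89.3 CPM in +/N159S and 80.9 to 94.2 CPM in N159S/N159S, so the +/N159S range spanned that of +/+ and the N159S/N159S range lay just above it. Of the 19 genes, Cst3 and Cd68 took the largest part. At an unadjusted p under 0.05, 6 were higher and 1 lower in N159S/N159S, and 2 were higher and 3 lower in +/N159S. The defining dendritic cell genes were low: Itgax was counted 0 and 3 times in +/+, 7 and 11 times in +/N159S and 2 and 6 times in N159S/N159S, and Zbtb46 1 and 1, 5 and 5, and 3 and 4 times. Xcr1 reached 0.513 CPM and Clec9a 0.427 CPM at most, both in +/+ replicate 1. Flt3, a growth factor receptor of dendritic cells and of progenitors, was at 0.0855 and 0.593 CPM in +/+, 1.07 and 1.78 CPM in +/N159S and 2.02 and 1.31 CPM in N159S/N159S, with log2 fold changes against +/+ of 1.89 ± 0.70 (edgeR FDR 0.21) and 2.17 ± 0.69 (edgeR FDR 0.11). Itgax, Zbtb46 and Flt3 were thus higher in both +/N159S libraries than in both +/+ libraries, as were the class II genes. Of 7 erythroid genes, the 4 haemoglobin genes were at 0 counts in all 6 libraries, and the list summed to 0.855 to 4.48 CPM in +/+, 5.29 to 7.38 CPM in +/N159S and 1.79 to 2.40 CPM in N159S/N159S. Early B cell genes were low, with summed levels of 0.298 to 1.59 CPM over Vpreb1, Igll1, Cd93, Rag1 and Rag2. The part of other cell types in the values above was not tested further.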

How the data were processed

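Spleen CD4 T cells (TCRb+CD4+CD44-CD127+) were profiled by RNA-seq in 6 libraries. The authors selected poly(A) RNA, prepared libraries with the NEBNext Ultra II kit, removed adapters with Trimmomatic, aligned to mm10 by HISAT2 2.2.1 and assigned reads to refGene genes by HTSeq 2.0.2. The deposited values are raw read counts per gene, without normalization. Whether the counting used strand is not given in the sources used here, so members that share exon bases with a neighbour (H2-DMa, H2-Oa, Pax5, Cd22, Cd72, Cd180, Fcgr2b, Ciita, Bcl11a and Lyn) are uncertain.

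Tests used edgeR 4.0.16 (R 4.3.3): filterByExpr (minimum count 10, minimum total 15), TMM, 1 coefficient per genotype over all 6 libraries, the quasi-likelihood test and Benjamini-Hochberg adjustment over 12117 genes (threshold 0.05). A second fit used the log geometric mean of the Cd74 and Cd79b counts as the offset of each library. The scripts were tested on simulated data. Log2 CPM used a prior count of 2, and slopes and correlations are descriptions. RPKM used GENCODE exon lengths. Promoters are RefSeq's, and 27 of 34 members matched.

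All 34 members were named, with full statistics for the members called and for Cd74, Cd79b and Fcer2a; of other lists, genes called and the most abundant markers were named, and the 10 other genes most like the B cell level. The members and lists were chosen with earlier results of these data known. Alternatives were DESeq2 1.42.0, its size factors, other filters, the replicate number as a block, only the genotypes compared, other references, the reference as a covariate, and each library left out in turn.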

Additional observations from a re-analysis of the deposited data

How the results depend on the processing

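Fcer2a was lower in both mutant genotypes than in +/+ under every alternative that kept it; a minimum of 10 counts in every library removed it. With DESeq2's size factors, DESeq2, only the 2 genotypes compared, or the replicate block (6 lower and 1 higher in N159S/N159S, 12 higher and 1 lower in +/N159S), each count of members called on the TMM scale stayed within 1.5 times. Same-numbered libraries did not all deviate together. The correlations were -0.17 for +/+ with +/N159S, -0.22 for +/+ with N159S/N159S and 0.24 for +/N159S with N159S/N159S. With 2 libraries for each genotype this cannot show whether libraries were paired or prepared in batches. No source states that the numbers pair libraries. With no filter on low counts, 2 members were higher and 13 lower in N159S/N159S and 33 were higher in +/N159S than in +/+, beside 2.97%, 1.94% and 2.18% of all genes (the cause was not tested). With at least 10 counts in every library, 0 were lower in +/N159S, because Fcer2a was not tested, and relative to the B cell level 0 were lower in any comparison, because Fcer2a and Fcrla were not tested. With 1 library left out, the TMM counts ranged from 1 to 7 lower in N159S/N159S, from 3 to 22 higher and from 0 to 1 lower in +/N159S, and from 10 to 27 lower between the mutant genotypes; relative to the B cell level, the counts between the mutant genotypes ranged from 0 to 2 higher and from 0 to 1 lower.

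Relative to the B cell level, the calls between the mutant genotypes were the least firm: Cd79b alone as the reference gave 0 higher and 0 lower, Cd79a, Cd79b and Ms4a1 gave 5 higher (93.6% of all genes) and 0 lower, the B cell level as a covariate gave 0 and 0, and the replicate block gave 1 higher. Against +/+, Cd79a, Cd79b and Ms4a1 as the reference gave 2 higher in N159S/N159S (3.58% of all genes), and the covariate gave 1 higher and 7 lower there and 0 lower in +/N159S; the cause was not tested. Values that turned their sign had not passed the test, except H2-Oa between the mutant genotypes (-1.24 with the covariate): Fcer2a between the mutant genotypes was 0.17 with Cd79a, Cd79b and Ms4a1, 0.073 with the covariate, and -0.88 to 0.38 with 1 library left out (above 0 without +/N159S replicate 2 or N159S/N159S replicate 1), and in N159S/N159S against +/+ Cd79b was -0.19 to 0.53 with 1 library left out (below 0 without replicate 1 of either genotype) and Cd74 was -0.57 to 0.016 (above 0 without +/+ replicate 2). With 6 to 35 Fcer2a reads in each mutant library, its difference between the mutant genotypes on the TMM scale (-1.83, FDR 0.184) passed with no filter on low counts (-1.82, FDR 0.00119).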

Other observations

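Genes tied to B cell subsets and to antibody-secreting cells did not share 1 pattern. Of 6 marginal zone B cell genes tested, Cd9 was higher in N159S/N159S than in +/+ (101 and 92.6 CPM against 59.6 and 43.8 CPM, edgeR FDR 0.0027) and Cd1d1, which presents lipids, was lower (29.0 and 26.2 CPM against 45.7 and 47.5 CPM, edgeR FDR 0.0031). T cells also express both genes. Of 4 plasma cell genes tested, Irf4, a transcription factor of activated lymphocytes, was lower in N159S/N159S, from 16.5 and 20 CPM in +/+ to 3.46 and 3.35 CPM (edgeR FDR 0.00012), with +/N159S in between at 8.63 and 12.4 CPM.

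Other lymphocyte markers moved in the same libraries. Cd8b1, a chain of the CD8 co-receptor, was at 20 and 12.9 CPM in +/+, 12.5 and 8.98 CPM in +/N159S and 3.12 and 2.04 CPM in N159S/N159S (edgeR FDR 0.00038 for N159S/N159S against +/+), and Cd8a was lower in N159S/N159S than in +/N159S (edgeR FDR 0.047). Of 15 T cell genes, Cd5 and Lef1 were lower in N159S/N159S and Il7r was lower in +/N159S than in +/+. Summed over the list, T cell genes were at 9132 to 9397 CPM in +/+, 8226 to 8612 CPM in +/N159S and 8187 to 8203 CPM in N159S/N159S. The part of these markers in the B cell values was not tested.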
